A study of Homo sapiens with 6 samples.

Results

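Solute carriers (SLC genes) encode the membrane transporters that move ions, nutrients, metals and metabolites into and out of cells and organelles. The members described here were taken by symbol alone from the deposited table: every symbol made of SLC, a family number, the letter A and a member number, outside the SLC1, SLC3, SLC7, SLC11, SLC25, SLC38, SLC40 and SLC43 families. There were 106 such genes of 11314 in the table, from 33 families. The symbol rule itself used no expression value, but it was set with earlier results of these data known. The table also holds only genes whose higher group mean was at least 0.5003 FPKM. SLC symbols with another letter, such as the SLC35B to SLC35G and SLCO genes, are not among them. By textbook location 16 of the 106 were assigned to the Golgi or endoplasmic reticulum (ER) and 12 to endosomes, lysosomes or vesicles, so the set reaches beyond the plasma membrane. SLC2A6, described below as placed in lysosomes in mouse macrophages, is not counted among the 12.

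Carriers work as uniporters, symporters or exchangers. Uniporters such as the glucose carriers let a solute run down its gradient, symporters such as the SLC6 amino acid carriers draw on the sodium gradient kept by the sodium pump, and exchangers trade ions across the membrane. Zinc is governed by a pair of families, the ZIP importers (SLC39) that raise cytosolic zinc and the ZnT exporters (SLC30) that lower it. In gastric epithelium and its tumours such carriers serve acid and bicarbonate movement, lactate export and nutrient uptake.

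All 6 messenger RNA libraries were made from the established gastric cancer line SNU-668, of human origin, in a subline described as resistant to erastin, an inhibitor of cystine import that sets off ferroptosis. The cells were transfected with a short hairpin RNA against SPIN1 (a histone reader) or a control labelled NC, and 3 libraries are titled for each. The genotype entries run against the titles (wild type for the samples titled SPIN1, SPIN1 knockdown for the samples titled NC), and ALKBH3 stands in place of SPIN1 in the design text. The prefix RLS3 in the titles has no explanation in the labels. Groups below follow the titles, directions are those of the group titled SPIN1 relative to the group titled NC, and unless stated otherwise the first 3 values of a gene are titled NC replicates 1 to 3 and the next 3 titled SPIN1 replicates 1 to 3. Nothing says that replicates are separate cultures, and p-values then measure a spread between samples that may be only technical.

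SPIN1 was at 0.322, 6.18 and 7.97 FPKM in titled NC replicates 1 to 3 and at 0.324, 0.629 and 2.49 FPKM in titled SPIN1 replicates 1 to 3 (FPKM, fragments scaled by the length of the gene model and by all mapped fragments of the library). The groups overlapped (limma adjusted p = 0.307; two-sided exact permutation p = 0.4, where 3 against 3 libraries allow no p under 0.1), so its level did not check the labels. ALKBH3 did not pass the test either (adjusted p = 0.381). Median FPKM per library ran from 4.91 to 5.12 in the group titled NC and from 5.16 to 5.49 in the group titled SPIN1, mitochondrial genes took 32.2% to 38.4% of FPKM, and depth is unknown because the table holds no counts. Of 6 epithelial markers 4 had rows, summing to 270 to 315 FPKM in the libraries titled NC and 347 to 428 in those titled SPIN1. KRT7, KRT8 and KRT18 carried that sum, EPCAM was at 1.44 FPKM at most, and CDH1 and KRT19 had no row. Of 9 gastric markers TFF1 and GATA4 alone had rows (sums of 3.33 to 9.66 and 4.06 to 9.85 FPKM), and none of 4 intestinal markers had one. Of 5 fibroblast markers COL3A1, DCN and LUM had rows (177 to 202 and 182 to 261 FPKM), without COL1A1 or COL1A2. Among endothelial markers CDH5 alone had a row (1.40 to 1.73 and 0.348 to 1.22 FPKM). CD68 and CD14 of 4 leukocyte markers had rows (167 to 181 and 91.0 to 156 FPKM), without PTPRC or CD3E. KRT8, KRT18, DCN and LUM were higher and CD14 lower by limma. The part of these markers in the results below was not tested, and in bulk RNA fewer cells of a type and less RNA per cell cannot be told apart.

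Among the 106 carriers, 24 differed between the groups past the test and most did not. The glycine carrier SLC6A9 was 4.41-fold lower, the broad amino acid carrier SLC6A14 4.99-fold lower and the zinc importer SLC39A6 2.31-fold lower in mean FPKM (n = 3 libraries a group). The phosphate carrier SLC20A1 was 2.54-fold higher, the nucleoside carrier SLC29A1 2.38-fold higher and the hexose carrier SLC2A6 2.59-fold higher. Carriers that feed glucose and lactate across the plasma membrane, SLC2A1, SLC16A1 and SLC16A3, did not pass the test. In all 104 members had a mean of at least 0.5 FPKM over the 6 libraries and were tested, with limma on log2(FPKM + 1) and Benjamini-Hochberg adjustment over all 11061 genes tested. At an adjusted p under 0.05, 11 members (10.6%) rose, 13 (12.5%) fell and 80 did not pass. Over all genes tested 17.3% were higher and 10.3% lower, 27.6% in either direction. The share of members called lower was thus near the background and that of members called higher below it, and neither difference in share was tested. With weights per library 23 members were higher and 21 lower, 42.3% of those tested, against 48.9% of all genes in the same fit. The median log2 difference of the tested members was -0.004, against 0.049 for all genes tested. Signs were even, with 52 members above 0 and 52 below, and 55 lay within 0.25 on the log2 scale.

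**Figure D1:**
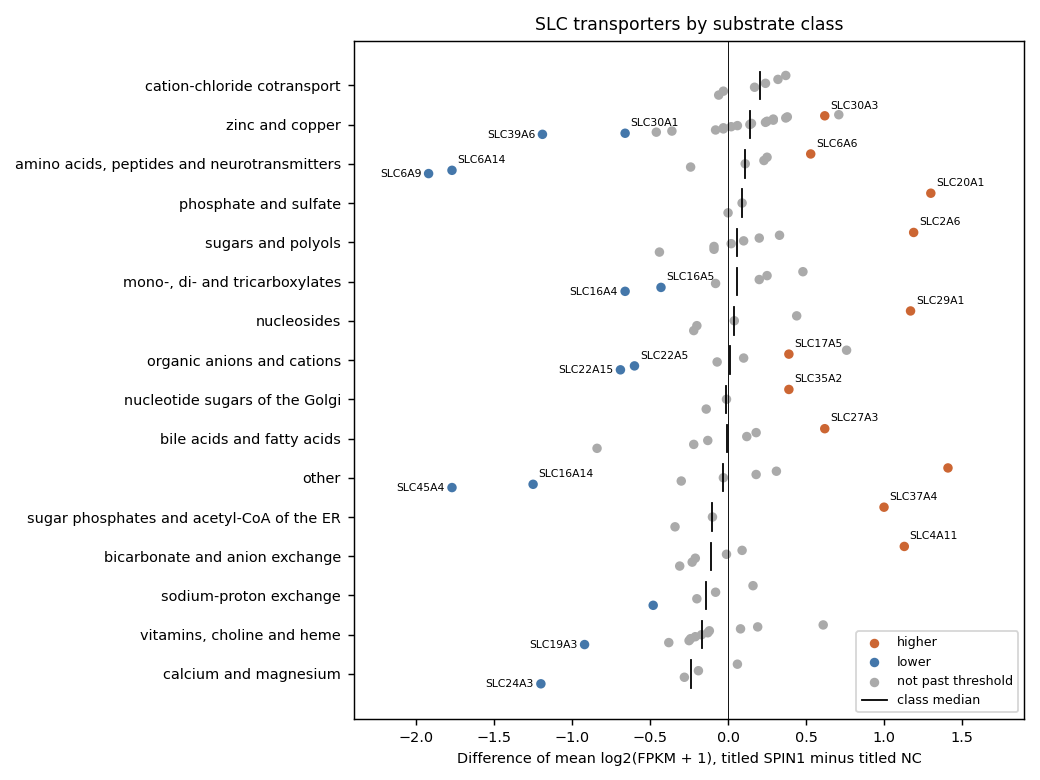
Difference of mean log2(FPKM + 1), titled SPIN1 minus titled NC, for the 104 tested carriers (points), arranged by substrate class, with the class median as a black bar. Coloured points passed limma's test, 11 higher and 13 lower, while the 80 grey points did not. The cation-chloride class has no coloured point.

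All 24 called members had groups that did not overlap. The calls were made on the same values and favour such groups, so this is no separate support. Without regard to the test, 22.1% of tested members had every library titled SPIN1 above every library titled NC and 19.2% had them all below, against 27.2% and 18.8% of all genes tested (46.0% in either direction). Mean FPKM differed by at least 2-fold for 8 of the 11 higher members and 8 of the 13 lower. The call was kept in each of the 6 fits without 1 library for 18 of the 24. Among the exceptions were SLC16A5, SLC17A5 and SLC35A2 (called in 1 of the 6 fits), SLC22A5 (3) and SLC27A3 (4). SLC16A5 and SLC17A5 were called only without titled SPIN1 replicate 1 (adjusted p = 0.0163 and 0.0275) and SLC35A2 only without titled NC replicate 1 (0.0425). SLC22A5 lost its call without replicate 2 or 3 of the group titled NC or replicate 2 of the group titled SPIN1, and SLC27A3 without titled NC replicate 3 or titled SPIN1 replicate 2 (adjusted p up to 0.0662 and 0.0565). The table itself holds only genes whose higher group mean was at least 0.5003 FPKM, so SLC12A3, SLC12A5, SLC19A3 and SLC30A3, with 1 group mean under 0.5 FPKM, entered through their higher group and had to differ between groups to be there.

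**Figure D2:**
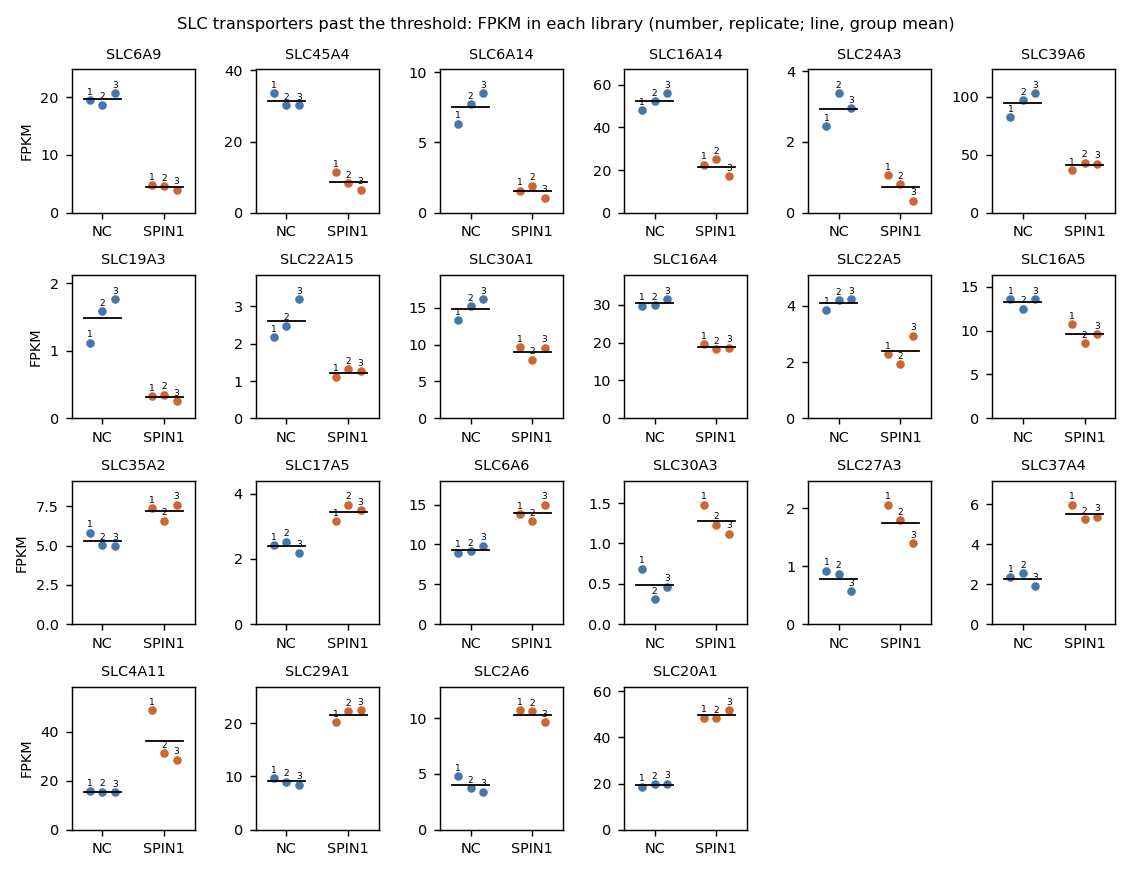
FPKM in each library for 22 of the 24 carriers past the threshold, ordered from the lowest to the highest log2 difference (blue, titled NC; orange, titled SPIN1; digits, replicate numbers; lines, group means; each axis starts at 0). In every panel the 3 points of one group lie apart from those of the other. The libraries titled SPIN1 spread from 28.6 to 48.7 FPKM for SLC4A11.

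Member levels can be compared per length in FPKM. Mean level over the 6 libraries ran from 0.301 to 93.9 FPKM, with a median of 4.88 FPKM, against 5.51 FPKM for all genes tested. SLC39A8, a ZIP carrier of zinc and manganese, stood highest at 93.9 FPKM, followed by SLC39A6 (67.4), the riboflavin carrier SLC52A2 (53.8), the lactate exporter SLC16A3 (49.0) and the creatine carrier SLC6A8 (44.4). SLC39A8 and SLC39A6 lay at like levels in the libraries titled NC, at 89.0 ± 8.64 and 94.1 ± 10.5 FPKM (SD, n = 3), and apart in those titled SPIN1, at 98.7 ± 6.85 and 40.7 ± 3.45 FPKM. The next neighbours in the order overlapped over the 6 libraries, at 41.9 to 70.4 FPKM for SLC52A2, 41.0 to 64.8 FPKM for SLC16A3 and 39.3 to 53.2 FPKM for SLC6A8. Summed over all members the level was 1165 ± 30.5 FPKM in the libraries titled NC and 1104 ± 39.2 FPKM in those titled SPIN1 (SD, n = 3 each), 0.384% to 0.435% of a library's summed FPKM. Zinc and copper carriers made up 31.4% and 30.0% of that sum in the groups titled NC and SPIN1, vitamin, choline and heme carriers 11.7% and 11.0%, and monocarboxylate carriers 10.8% and 11.6%. The monocarboxylate share leaves out SLC16A14, a family member of unknown substrate, at 52.2 FPKM in the group titled NC and 21.6 FPKM in that titled SPIN1.

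**Figure D3:**
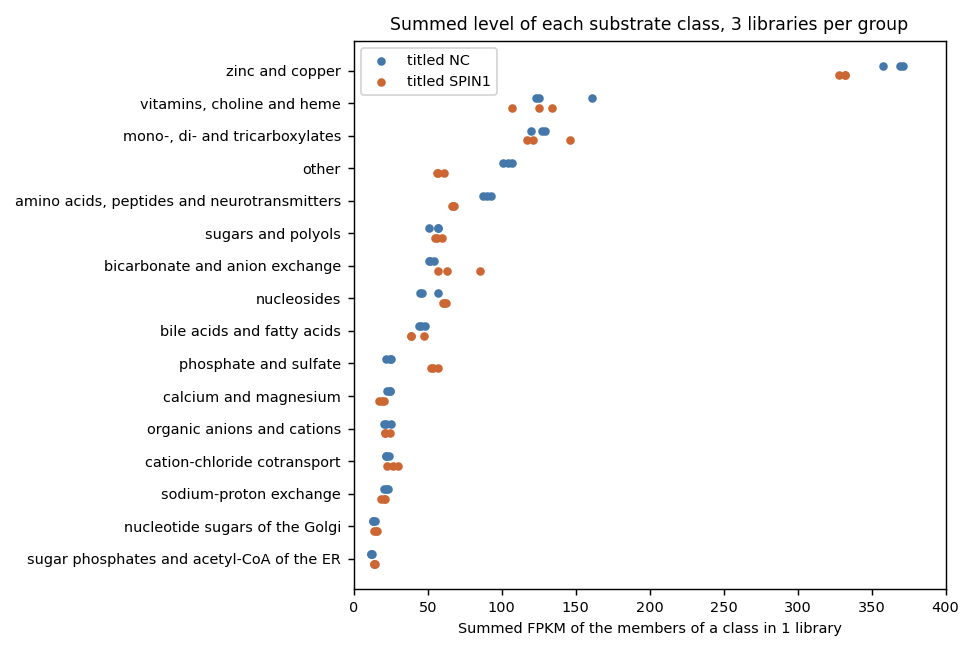
Summed FPKM of the members of each substrate class in each library (blue, titled NC; orange, titled SPIN1; 3 points a group; the axis starts at 0). The phosphate and sulfate class sums to 21.8 to 25.4 FPKM in the libraries titled NC and to 52.0 to 57.0 in those titled SPIN1, and the amino acid class to 87.4 to 92.8 and 66.7 to 67.5.

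Zinc and copper carriers were the largest class, and a zinc importer and a zinc exporter were both lower in it. Of 19 members 1 was higher, 2 lower and 16 not past the threshold, where 27.6% of all genes tested were called. The class median was 0.14 on the log2 scale. SLC39A6 (ZIP6, hg19 chromosome 18, 33688495 to 33709348, minus strand) imports zinc and was at 82.4, 97.1 and 103 FPKM against 36.8, 43.1 and 42.3 FPKM. The groups did not overlap (difference on the log2 scale -1.19, SE 0.11, limma adjusted p = 0.00106). SLC30A1 (ZnT1), the main zinc exporter of the plasma membrane, was at 13.3, 15.2 and 16.2 against 9.61, 7.93 and 9.58 FPKM, again with no overlap (log2 difference -0.66, SE 0.12, adjusted p = 0.00888). SLC30A3 (ZnT3), known for loading zinc into synaptic vesicles of neurons, was higher from a low level, 0.486 ± 0.191 to 1.28 ± 0.187 FPKM (SD, n = 3 each; adjusted p = 0.0120). It is in the table only through its higher group, which favoured this call, the only higher one of the class.

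The promoters of SLC30A1 and SLC39A6 are shown because both genes fell and because SLC30A1 is a known target of the zinc-sensing factor MTF1, which binds metal response elements. The sequences are RefSeq's on GRCh38.p14, from 250 bases before to 50 bases after the gene start, read 5′ to 3′ on the gene's own strand, the minus strand for both (SLC30A1, chr1:211579112-211579411; SLC39A6, chr18:36129291-36129590). Capitals mark matches to TGCNCNC on either strand.
SLC30A1: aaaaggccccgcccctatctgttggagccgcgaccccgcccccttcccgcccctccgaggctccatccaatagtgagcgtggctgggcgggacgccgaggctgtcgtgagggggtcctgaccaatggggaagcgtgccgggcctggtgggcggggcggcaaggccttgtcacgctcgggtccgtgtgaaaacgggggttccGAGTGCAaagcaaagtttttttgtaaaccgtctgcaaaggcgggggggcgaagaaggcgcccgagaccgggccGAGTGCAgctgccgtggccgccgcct
SLC39A6: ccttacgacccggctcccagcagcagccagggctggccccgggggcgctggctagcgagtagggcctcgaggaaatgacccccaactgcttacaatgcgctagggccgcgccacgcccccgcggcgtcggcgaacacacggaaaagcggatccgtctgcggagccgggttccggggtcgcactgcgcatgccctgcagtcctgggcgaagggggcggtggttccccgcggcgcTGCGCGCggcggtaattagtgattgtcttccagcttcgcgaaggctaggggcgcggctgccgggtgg
SLC30A1 held 2 matches and SLC39A6 1. This short motif is common, and 55.2% of 27305 promoters and 65.5% of the 84 members with a promoter in that table held at least 1 match. A match is a description of the letters and shows no binding.

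The other zinc and copper carriers gave no call. The ER zinc release channel SLC39A7 (ZIP7) was at 42.7, 43.5 and 43.7 against 46.5, 44.3 and 45.1 FPKM, and SLC39A1 (ZIP1) at 36.5 ± 6.0 against 43.2 ± 0.617 FPKM. SLC31A1, the copper importer CTR1, was at 10.1, 11.4 and 12.8 against 9.79, 11.2 and 12.5 FPKM, with overlapping groups (log2 difference -0.03, SE 0.13). SLC39A13 (ZIP13), a zinc carrier of the Golgi, was at 15.9, 5.77 and 5.85 against 16.5, 5.83 and 11.0 FPKM, highest in replicate 1 of both groups. SLC39A14 (ZIP14), a carrier of zinc and iron, was at 8.36 to 9.63 FPKM in 5 libraries and at 2.44 FPKM in titled SPIN1 replicate 3. Golgi zinc loaders SLC30A5 and SLC30A7 differed by -0.03 and 0.02 on the log2 scale. Among 12 listed genes of zinc and copper buffering, sensing and export 8 had rows, of which 3 rose, 0 fell and 5 did not pass, where 17.3% of all genes tested were higher and 10.3% lower. The higher genes were the metallothionein MT2A, which binds zinc (160 ± 23.9 to 254 ± 15.5 FPKM), the copper chaperone ATOX1 (4.64 to 7.23 FPKM) and the copper pump ATP7A (0.613 to 1.09 FPKM). MTF1 itself was at 3.47 against 2.87 FPKM and did not pass (adjusted p = 0.203).

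Among carriers of amino acids and related solutes the glycine carrier SLC6A9 and the broad amino acid carrier SLC6A14 were lower and the taurine carrier SLC6A6 higher. Of 7 members 1 was higher, 2 lower and 4 not past the threshold, where 27.6% of all genes tested were called. SLC6A9 (GlyT1, chromosome 1, 44457172 to 44497139, minus strand), the sodium-driven glycine carrier, was at 19.5, 18.7 and 20.7 against 4.74, 4.58 and 4.00 FPKM. Its span overlaps CCDC24 on the opposite strand. The groups lay far apart (log2 difference -1.92, SE 0.10, adjusted p = 0.000258), the smallest adjusted p of the members. SLC6A14 (chromosome X, 115567790 to 115592625, plus strand) takes up neutral and cationic amino acids and was at 6.33, 7.72 and 8.50 against 1.57, 1.9 and 1.05 FPKM (log2 difference -1.77, SE 0.17, adjusted p = 0.000997). SLC6A6, the taurine carrier, moved the other way, from 8.95, 9.14 and 9.86 to 13.8, 12.9 and 15 FPKM (log2 difference 0.53, SE 0.10, adjusted p = 0.00909). Glycine and taurine carriers of the same family were thus called in opposite directions, although their difference from each other was not tested. SLC6A8, the creatine carrier, was at 48.2 ± 4.43 against 40.5 ± 1.05 FPKM (adjusted p = 0.1), and its reads may be shared with a near-identical pseudogene. Its groups did not overlap, and limma called it lower under quantile normalization (adjusted p = 0.0313) and with weights per library (adjusted p = 0.0394). The proton-driven lysosomal carrier SLC36A1 was at 0.712 ± 0.107 against 1.05 ± 0.503 FPKM and its relative SLC36A4 at 1.76 ± 0.329 against 1.96 ± 0.220 FPKM, neither past the threshold. In the RefSeq window the ATF4 element TGATGNAA, searched on both strands, matched 3.57% of the 84 members and 3.67% of all promoters, and had 0 matches among the 8 higher and 9 lower members with a promoter there.

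Among sugar carriers SLC2A6 was higher, as was the ER glucose 6-phosphate carrier SLC37A4, while the main glucose carrier SLC2A1 gave no call. Of 8 sugar and polyol carriers 1 was higher and 7 not past the threshold, where 27.6% of all genes tested were called. That count leaves out SLC45A4 of the SLC45 sugar carrier family. SLC45A4 was lower and was set apart from the class after its values were seen. SLC2A1 (GLUT1), the main glucose carrier of most tumour cells, was at 23.1, 22.9 and 23.4 against 23.7, 21.5 and 19.8 FPKM (log2 difference -0.09, SE 0.09, adjusted p = 0.495). SLC2A3 (GLUT3), which shares most of its sequence with SLC2A14 and is uncertain for that, was at 2.03, 4.52 and 4.96 against 5.66, 4.38 and 4.59 FPKM, with titled NC replicate 1 apart. SLC2A6 (GLUT6, chromosome 9, 136336217 to 136344259, minus strand), a hexose carrier placed in lysosomes in mouse macrophages, was at 4.81, 3.71 and 3.42 against 10.7, 10.6 and 9.66 FPKM (log2 difference 1.19, SE 0.13, adjusted p = 0.00155). SLC37A4, which carries glucose 6-phosphate into the ER, rose from 2.36, 2.54 and 1.93 to 5.98, 5.26 and 5.37 FPKM (log2 difference 1.00, SE 0.12, adjusted p = 0.00196), and its span overlaps TRAPPC4 on the opposite strand. In the same class of 3 ER carriers, SLC33A1, the acetyl-CoA carrier, was at 4.15 ± 0.392 against 3.08 ± 0.341 FPKM and did not pass (adjusted p = 0.0720). The myo-inositol carrier SLC5A3, whose span overlaps MRPS6 on the same strand, was at 1.2 ± 0.199 against 1.22 ± 0.15 FPKM.

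Of 8 listed regulators of glucose uptake, all with rows, 2 fell, 2 rose and 4 did not pass, where 27.6% of all genes tested were called. TXNIP, an arrestin that draws GLUT1 off the cell surface, was at 10.7, 22.7 and 20.0 against 1.91, 1.71 and 1.13 FPKM (11.3-fold lower in mean, adjusted p = 0.00133), and its relative ARRDC4 at 3.63 against 1.35 FPKM. Hexokinase 1 (HK1), which traps glucose in the cell, was at 24.6, 25.7 and 27.6 against 50.1, 51.2 and 55.2 FPKM (log2 difference 0.98, adjusted p = 0.000874), and TBC1D1, a regulator of GLUT4 vesicles, at 0.505 against 1.01 FPKM.

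In the monocarboxylate class, assigned by gene family and not by measured transport, SLC16A4 and SLC16A5 were lower. The lactate carriers SLC16A1 and SLC16A3 gave no call. Of 6 members in the class 2 were lower and 4 not past the threshold, where 27.6% of all genes tested were called. SLC16A14, a member of the same family with unknown substrate that was also lower, is counted outside this class. SLC16A3 (MCT4), which exports lactate, was the most abundant, with a span overlapping AC132872.2 on the same strand, at 53.9, 41.0 and 41.6 against 64.8, 45.8 and 47.0 FPKM, with replicate 1 highest in both groups and overlapping groups (log2 difference 0.20, SE 0.17, adjusted p = 0.437). SLC16A1 (MCT1) was at 15.4, 18 and 19.4 against 20.4, 19.7 and 23.1 FPKM, without overlap but short of the threshold (adjusted p = 0.160). SLC16A4 (MCT5), a carrier with few known substrates, fell from 29.7, 29.8 and 31.5 to 19.6, 18.3 and 18.6 FPKM (log2 difference -0.66, SE 0.08, adjusted p = 0.00242). SLC16A5 (MCT6) was at 13.2 ± 0.622 against 9.62 ± 1.06 FPKM (adjusted p = 0.0273, up to 0.0902 with 1 library left out). SLC16A6 (MCT7), tied to ketone body export, was at 17.7 ± 2.63 against 25.2 ± 4.67 FPKM and did not pass (adjusted p = 0.0661). Basigin (BSG), the chaperone that carries MCT1 and MCT4 to the surface, was lower at 399, 357 and 355 against 282, 310 and 265 FPKM (log2 difference -0.38, adjusted p = 0.0236), while the chaperone NPTN was at 15.4 against 16.3 FPKM.

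Among inorganic ion carriers, the phosphate carrier SLC20A1 and SLC4A11 were higher. SLC20A1 (PiT1, hg19 chromosome 2, 113403434 to 113421404, plus strand), a sodium-driven phosphate importer, was at 18.7, 19.8 and 20.0 against 48.5, 48.4 and 51.7 FPKM. Its groups were tight and far apart (log2 difference 1.30, SE 0.08, adjusted p = 0.000475). Its relative SLC20A2 (PiT2) was at 3.05 ± 1.29 against 3.16 ± 0.563 FPKM, not past the threshold, as was the sulfate carrier SLC26A2 at 1.38 ± 0.139 against 1.40 ± 0.396 FPKM. The SLC20A1 promoter is shown as the member with the most significant rise (GRCh38.p14, chr2:112645689-112645988, plus strand). Capitals mark an E-box CACGTG, a site of MYC and related factors, and matches to the antioxidant response element TGACNNNGC on either strand.
SLC20A1: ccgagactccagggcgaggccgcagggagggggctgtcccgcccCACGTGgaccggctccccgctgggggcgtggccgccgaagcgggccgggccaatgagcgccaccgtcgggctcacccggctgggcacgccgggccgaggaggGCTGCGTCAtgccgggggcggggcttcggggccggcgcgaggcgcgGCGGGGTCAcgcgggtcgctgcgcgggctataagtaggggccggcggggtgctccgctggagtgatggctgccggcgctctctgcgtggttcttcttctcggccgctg
Of all 27305 promoters 7.43% held the E-box and 13.6% the antioxidant element, and among the 84 members 10.7% and 16.7%. Of the 8 higher members with a promoter 2 held the E-box and 3 the antioxidant element, and of the 9 lower members 0 and 1. No difference between these counts was tested, and a match shows no binding. The motifs marked are those that matched. The ATF4 element, the metal response element and the E2F site TTTNGCGC were also searched and had no match in this promoter. The E2F site matched 4.76% of the 84 members and 1.83% of all promoters, with 1 match among the 8 higher members and 0 among the 9 lower.

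SLC4A11 (chromosome 20, 3208063 to 3219836, minus strand) belongs to the bicarbonate family but is known for moving protons and ammonia rather than bicarbonate. It was at 15.7, 15.5 and 15.4 against 48.7, 31.3 and 28.6 FPKM, every library titled SPIN1 lying well above the tight group titled NC (log2 difference 1.13, SE 0.19, adjusted p = 0.00758). The other 5 members of that class gave no call. The chloride-bicarbonate exchanger SLC4A2 (AE2) was at 23.8 ± 1.5 against 20.2 ± 1.84 FPKM, and the sodium-bicarbonate carrier SLC4A7 at 1.89 ± 0.238 against 1.87 ± 0.219 FPKM. SLC24A3, a potassium-dependent sodium-calcium exchanger, fell from 2.44, 3.38 and 2.96 to 1.06, 0.801 and 0.338 FPKM (log2 difference -1.2, SE 0.18, adjusted p = 0.00506), and the magnesium carriers SLC41A1, SLC41A2 and SLC41A3 gave no call.

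None of the 6 cation-chloride cotransporters tested passed at the main settings, where 27.6% of all genes tested were called. With weights per library SLC12A2, SLC12A4 and SLC12A9 were called higher (adjusted p = 0.00956, 0.0485 and 0.0165). SLC12A2 (NKCC1), the sodium-potassium-chloride importer, was at 0.705, 0.781 and 0.923 against 0.854, 1.43 and 1.81 FPKM (adjusted p = 0.136). Without titled SPIN1 replicate 1 it passed, with an adjusted p of 0.0191. The potassium-chloride exporter SLC12A7 (KCC4) was at 10.1 ± 0.639 against 11.6 ± 2.43 FPKM. The 2 members too low for the test are both here. SLC12A3, the sodium-chloride carrier of the kidney tubule, was at 0.0324, 0.0368 and 0.0592 against 0.915, 0.474 and 0.290 FPKM, and SLC12A5, the neuronal KCC2, at 0.720, 0.452 and 0.481 against 0.279, 0.352 and 0.213 FPKM. With no filter on low values 1 member of the class, SLC12A3, was called higher, and it too is in the table only through its higher group. Of their 6 listed kinases 5 had rows, with STK39 higher (3.95 to 7.23 FPKM) and WNK4 lower (2.86 to 0.987 FPKM). Of 7 sodium pump genes 5 had rows. ATP1B1, a beta subunit, was higher at 87.7, 116 and 120 against 179, 174 and 176 FPKM (adjusted p = 0.00865) and the pump regulator FXYD5 lower at 281 against 219 FPKM (adjusted p = 0.0460). Of 7 carbonic anhydrases 5 had rows, with CA2 (2.62 to 10.0 FPKM) and CA12 (2.23 to 4.57) higher and CA11 and CA13 lower. Scaffolds and partners of sodium-proton exchange had 4 rows of 6 and gave no call. Beside these lists, 17.3% of all genes tested were higher and 10.3% lower, and no difference between the shares was tested.

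In the nucleoside class the equilibrative carrier SLC29A1 (ENT1, chromosome 6, 44187242 to 44201888, plus strand), which brings thymidine and adenosine into cells, stood alone. It was at 9.72, 9.04 and 8.46 against 20.2, 22.2 and 22.4 FPKM, with no overlap (log2 difference 1.17, SE 0.09, adjusted p = 0.000697). SLC29A2 (ENT2) was at 4.70 ± 0.416 against 3.98 ± 1.11 FPKM and the lysosomal SLC29A3 at 8.33 ± 0.558 against 7.13 ± 0.717 FPKM, neither past the threshold, nor was the vesicular ATP carrier SLC17A9. Of 3 nucleotide sugar carriers of the Golgi, SLC35A2, which supplies UDP-galactose, was higher at 5.82, 5.01 and 4.99 against 7.38, 6.59 and 7.61 FPKM (adjusted p = 0.0382, up to 0.135 with 1 library left out). Quantile normalization ended that call (adjusted p = 0.0571). SLC35A1, the CMP-sialic acid carrier, was at 7.65 ± 0.387 against 6.83 ± 0.518 FPKM.

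Vitamin, choline and heme carriers gave 1 call in 11, where 27.6% of all genes tested were called. SLC19A3, a thiamine carrier, fell from 1.12, 1.59 and 1.77 to 0.327, 0.353 and 0.256 FPKM (log2 difference -0.92, SE 0.12, adjusted p = 0.00285). It is in the table only through the group where it is high, so this call, the only one of the class, was favoured by that selection. The other thiamine carrier, SLC19A2, was at 5.5 ± 0.681 against 4.46 ± 0.328 FPKM (adjusted p = 0.165). SLC19A1, the reduced folate carrier, was at 4.44, 3.44 and 2.58 against 6.56, 4.63 and 6.27 FPKM, without overlap and just short of the threshold (log2 difference 0.61, SE 0.19, adjusted p = 0.0548, and 0.0395 without titled NC replicate 1), while the proton-coupled folate carrier SLC46A1 was at 4.08 ± 0.233 against 4.37 ± 0.534 FPKM. The riboflavin carrier SLC52A2 was at 57.0 ± 11.7 against 50.5 ± 8.92 FPKM, with replicate 1 highest in both groups. The choline carrier SLC44A1 was at 9.07, 10.4 and 9.44 against 5.73, 6.76 and 13.8 FPKM, with titled SPIN1 replicate 3 apart (adjusted p = 0.624, and 0.0296 without that library). SLC44A2 overlapped between groups at 16.3 ± 5.14 against 12.1 ± 3.08 FPKM.

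Organic ion and lipid carriers were called in both directions. SLC22A5 (OCTN2), the carnitine importer, was lower at 3.86, 4.20 and 4.24 against 2.27, 1.93 and 2.94 FPKM (adjusted p = 0.0182, up to 0.0662 with 1 library left out), and SLC22A15 was lower at 2.17, 2.48 and 3.20 against 1.11, 1.31 and 1.26 FPKM (adjusted p = 0.0101). The ergothioneine carrier SLC22A4, next to SLC22A5 on chromosome 5, was at 8.02 ± 0.377 against 7.61 ± 0.588 FPKM. SLC17A5 (sialin), which exports sialic acid from lysosomes, was higher at 2.38 ± 0.177 against 3.43 ± 0.259 FPKM (adjusted p = 0.0323), and after quantile normalization its adjusted p was 0.0567. Among fatty acid carriers SLC27A3 was higher, at 0.784 ± 0.193 against 1.75 ± 0.341 FPKM (adjusted p = 0.0166), though its span overlaps INTS3 on the same strand, so shared reads are possible. SLC27A4 (FATP4), the most abundant of them, was at 15.3 ± 0.744 against 16.7 ± 0.508 FPKM (adjusted p = 0.325).

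The carriers without a settled place among the classes held SLC45A4 and SLC16A14, both lower. Of 7 such members 1 was higher, 2 lower and 4 not past the threshold, where 27.6% of all genes tested were called. That count includes SLC45A4, placed here after its values were seen. SLC45A4 (chromosome 8, 142217265 to 142318404, minus strand), from a sugar carrier family and with a disputed substrate, was at 33.6, 30.3 and 30.2 against 11.4, 8.21 and 6.44 FPKM (log2 difference -1.77, SE 0.19, adjusted p = 0.00142). SLC16A14 (chromosome 2, 230899690 to 230933715, minus strand), a monocarboxylate family member of unknown substrate, was at 48.2, 52.4 and 56.1 against 22.5, 25.2 and 17.2 FPKM (log2 difference -1.25, SE 0.15, adjusted p = 0.00216). Across the 37 partner genes with rows, of 49 listed, 9 rose, 7 fell, 20 did not pass and 1 was too low to test, where 17.3% of all genes tested were higher and 10.3% lower. No difference between these shares was tested.

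**Figure D4:**
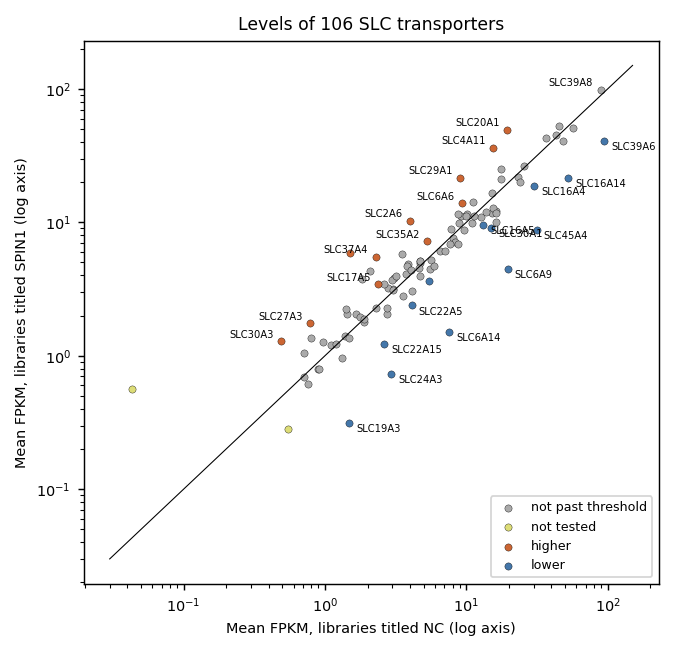
Mean FPKM of the 106 carriers in the libraries titled NC (horizontal, log axis) and titled SPIN1 (vertical, log axis), with the line of equal levels. Called members lie off the line from low level (SLC19A3, SLC30A3) to high (SLC39A6, SLC20A1), while SLC39A8, the most abundant, lies close to it; SLC12A3 and SLC12A5, at the lower left, were not tested.

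Several members varied widely between libraries of the same group. In 21 of the 104 tested members (20.2%) the highest library of a group was at least 2 times its lowest, against 17.7% of all genes tested, and in 9 (8.65%) at least 3 times, against 7.96%. Of the 9, SLC24A3 alone was called. SLC23A2, the ascorbate carrier, was at 16.8, 1.39 and 19.5 against 15.5, 1.40 and 15.9 FPKM, low in replicate 2 of both groups. SLC16A7 (MCT2) was at 0.118, 2.08 and 0.466 against 0.216, 2.01 and 0.169 FPKM, high in replicate 2 of both groups. SLC10A3, of a bile acid carrier family, was at 18.4, 16 and 13.8 against 4.74, 18.7 and 6.50 FPKM, and without titled SPIN1 replicate 2 it passed the threshold (adjusted p = 0.00834). SLC39A10, a zinc importer, was at 1.04 FPKM in titled NC replicate 3 against 3.30 to 4.74 in the other 5 libraries. SLC5A6, the biotin and pantothenate carrier, was at 12.6, 12.5 and 4.55 against 5.82, 13.4 and 14.2 FPKM. SLC30A6, a Golgi zinc carrier, was at 2.48, 1.84 and 1.95 against 4.65, 2.07 and 6.27 FPKM, and passed the threshold without titled SPIN1 replicate 2 (adjusted p = 0.0145).

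**Figure D5:**
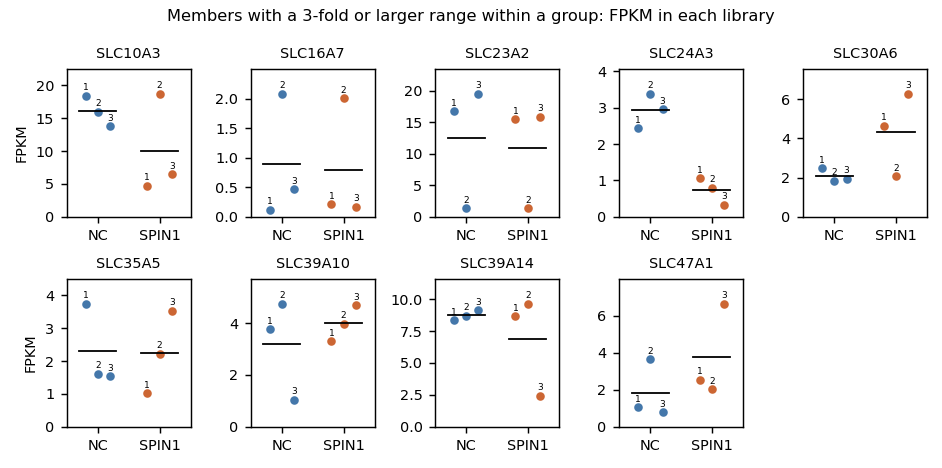
FPKM in each library for the 9 tested carriers whose highest library was at least 3 times the lowest within a group (blue, titled NC; orange, titled SPIN1; digits, replicate numbers; lines, group means; each axis starts at 0). SLC16A7 and SLC23A2 share the departing replicate number between groups, whereas SLC39A10 and SLC39A14 depart in a single library.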

How the data were processed

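The authors deposited 1 table of FPKM per gene covering 6 libraries, per the file headers. RNA was extracted with Trizol, poly(A) enriched and made into dUTP strand-specific libraries, per the labels' protocols. Per the submitters' processing notes, FastQC, cutadapt, HISAT2 and StringTie were used with build hg19. The use of strand in counting is not stated, and 33 members overlap another gene of the table (6 on the same strand). FPKM is relative to all mapped fragments, so a change in a few abundant genes shifts all others.

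Testing took genes averaging 0.5 FPKM or more, compared on log2(FPKM + 1), where differences of low genes are understated, with limma 3.58.1 (trend, robust moderation with statmod 1.5.0) in R 4.3.3, Benjamini-Hochberg adjusted over 11061 genes at a threshold of 0.05. Low values showed no steps of whole reads (12 to 35 genes a pair, at most 4 ratios within 0.02), so depth is unknown. The members, classes and lists were chosen with earlier results of these data known. SLC45A4 was moved to the class of unsettled substrate after its values were seen. Named members were the 10 largest increases and decreases (9 and 10 found) of at least 2 FPKM past the threshold, the most abundant and the most significant of each class, and a fixed set. Members named to complete a count or for their spread were chosen after their values were seen. Promoters (84 of 106 members matched by symbol, first listed start) were RefSeq's on GRCh38.p14, a build not mixed with hg19 coordinates. Some members and partner genes are not reported here by name. The code was tested on simulated data. Figures used matplotlib 3.10.9 in Python 3.11.15. Alternatives were pseudocounts of 0.1 and 0.01, no filter or at least 2 FPKM, median scaling, quantile normalization, plain moderation, library weights, a replicate block, an added floor of 1 on the log2 difference, and leaving out each library or both numbered 1.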

Additional observations from a re-analysis of the deposited data

How the results depend on the processing

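The 11 higher and 13 lower members became 23 and 21 with weights per library, a fit in which calls over all genes also went from 27.6% to 48.9%, and 5 and 6 where a log2 difference of at least 1 was also asked. Under the remaining alternatives they numbered 8 to 12 and 10 to 16, within 1.5 times, and with 1 library left out 8 to 12 higher and 10 to 13 lower. All 24 called members were also called with weights per library, and likewise under both other pseudocounts, with plain moderation and with no filter. Median scaling and quantile normalization gave 9 higher and 15 or 16 lower, losing SLC17A5 and SLC35A2, and SLC33A1 (adjusted p = 0.0325 and 0.0285) and SLC41A3 (0.0364 and 0.0299) were called lower under both. Without both libraries numbered 1 there were 10 higher and 12 lower, with SLC22A5, SLC27A3 and SLC35A2 among those lost and SLC12A2 and SLC39A4 gained.

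None of the 24 called members changed direction under these alternatives. Differences of several uncalled members turned sign, among them SLC17A9 (-0.03 under median scaling and under quantile normalization, -0.05 to 0.20 with 1 library left out), SLC5A3 (-0.02 under median scaling, -0.07 under quantile normalization, -0.03 with weights per library, -0.02 without both libraries numbered 1, -0.03 to 0.09 with 1 library left out), SLC46A1 (-0.01 with weights per library) and SLC2A3 (-0.07 without both libraries numbered 1). With 1 library left out, the log2 difference ran from -0.11 to 0.05 for SLC31A1, -0.08 to 0.67 for SLC39A10, -0.76 to 0.06 for SLC39A14, -0.56 to 0.01 for SLC44A1, -0.08 to 0.05 for SLC4A7 and -0.24 to 0.56 for SLC5A6. The range also crossed 0 for SLC23A2 (-1.13 to 0.81), SLC16A7 (-0.53 to 0.34), SLC20A2 (-0.21 to 0.26) and further uncalled members. The cause was not tested.

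The labels do not say that shared replicate numbers pair the samples. Deviations of same-numbered libraries from their group means correlated at 0.216, 0.0551 and 0.148, a weak hint of pairing from the data. Of the 6 other correlations 5 were below 0. That adds no evidence, because deviations within a group sum to 0, so values over 0 must be offset by others below 0. Not every pair was over 0.1, and titled NC replicate 2 correlated best with titled SPIN1 replicate 3 (0.0757). With the replicate block 11 members were higher and 14 lower, SLC39A4 being added (adjusted p = 0.0329). Without a depth for any library, counting error could not be set apart from the spread between libraries.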
